A study of Mus musculus with 4 samples.

Results

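DNA methylation was followed in male germ cells across 10 genes that Leydig cells use to make steroid hormones and to answer and send hormonal signals. The genes were taken by name and were Star, Cyp11a1, Hsd3b1, Hsd3b6, Cyp17a1, Hsd17b3, Cyp19a1, Lhcgr, Insl3 and Nr5a1. Each was read over its RefSeq span in mm10 plus 5 kb on either side. The promoter was the stretch from 1000 bp upstream to 500 bp downstream of the annotated start, by strand, and the gene body was the rest of the gene, beyond 500 bp downstream. The strands of Star, Cyp17a1 and Nr5a1 were taken from general knowledge and those of the other genes from RefSeq. The genes are 10 of 17277 protein-coding genes with a strand, and they held 343 of the 1566473 windows of 1 kb that had at least 3 CpGs measured in every sample.

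Testosterone is made in the Leydig cells that lie between the seminiferous tubules. Luteinizing hormone binds its receptor on these cells, cholesterol is carried into the mitochondrion and cut to pregnenolone, and a short chain of dehydrogenases and cytochromes P450 turns pregnenolone into testosterone or, through aromatase, into estradiol. The full chain to testosterone is run by Leydig cells and not by germ cells, although aromatase is also known from germ cells. Methylation of cytosine in CpG pairs is one of the marks that can sit on genes that a cell type does not use. Most CpGs of the mammalian genome are methylated, while promoters dense in CpGs are usually free of the mark whether or not the gene is active.

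The germ cells came from testes of 21-day-old mice and were profiled by whole-genome bisulfite sequencing with adaptors added after conversion (PBAT). The 2 control samples carried floxed Np95 alleles (Np95fl/fl), and the 2 knockout samples carried the same alleles together with Stra8-Cre (Np95fl/fl:Stra8-Cre), a recombinase that the Stra8 promoter drives in male germ cells before meiosis. Np95, also named Uhrf1, brings the maintenance methyltransferase Dnmt1 to newly copied DNA. Somatic cells of the testis are not a target of this Cre, and per the labels the cell suspension was passed through a mesh to take out interstitial cells, Leydig cells among them. Whether replicates were taken from different animals is not stated in the labels, and a p-value here speaks only of how far these samples spread, possibly for technical reasons.

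Over all cytosines with a value in every sample, the mean level was 69.1% and 72.9% in the controls, against 38.1% and 38.4% in the knockouts. Between 28999710 and 29774194 cytosines had a value per sample, and the read depth behind each value is unknown. The deletion of Np95 cannot be read from these values. The labelled cell type was looked at through 10 germ cell genes (Ddx4, Dazl, Mael, Sycp1, Sycp3, Tex101, Hormad1, Stra8, Tdrd1 and Piwil1). Their promoters averaged 7.86% and 8.03% in the controls, against 16.2% and 12.7% in the knockouts. The knockout mean was above the control mean in 10 of 10, though the groups overlapped for Ddx4 and Piwil1. The share of all promoters with a higher knockout mean was not counted. Mael, Sycp1, Dazl and Sycp3 passed the promoter test described below in the higher direction, and the other 6 did not. The part of this in the results below was not tested.

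The starts that matter most to what follows differ in how many CpGs precede them. The 250 bases upstream of 4 starts are printed 5′ to 3′ on the strand of the gene, from RefSeq (GRCm38.p6, the assembly of mm10), with each CpG in capitals. The outer start of Cyp11a1 and the start of Lhcgr lie in stretches with little methylation, and the inner start of Cyp11a1 and the outer start of Cyp19a1 follow CpGs that were highly methylated in the controls.
Cyp11a1, outer start, chr9:57997774-57998023, plus strand: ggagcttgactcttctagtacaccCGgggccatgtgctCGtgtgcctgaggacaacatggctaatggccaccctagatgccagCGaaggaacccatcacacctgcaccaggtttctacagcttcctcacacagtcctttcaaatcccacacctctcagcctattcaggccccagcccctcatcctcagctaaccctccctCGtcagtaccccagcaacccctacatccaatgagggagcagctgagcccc
Cyp11a1, inner start, chr9:58014702-58014951, plus strand: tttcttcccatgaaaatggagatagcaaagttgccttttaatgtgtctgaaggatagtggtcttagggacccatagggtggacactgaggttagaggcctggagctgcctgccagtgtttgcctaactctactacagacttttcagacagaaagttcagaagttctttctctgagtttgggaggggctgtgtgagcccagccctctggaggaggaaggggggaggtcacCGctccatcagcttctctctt
Lhcgr, chr17:88792015-88792264, minus strand: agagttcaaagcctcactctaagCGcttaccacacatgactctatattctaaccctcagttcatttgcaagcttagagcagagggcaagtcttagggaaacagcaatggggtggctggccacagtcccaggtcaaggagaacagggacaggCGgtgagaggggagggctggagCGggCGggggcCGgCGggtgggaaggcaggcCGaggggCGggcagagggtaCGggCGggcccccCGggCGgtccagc
Cyp19a1, outer start, chr9:54268165-54268414, minus strand: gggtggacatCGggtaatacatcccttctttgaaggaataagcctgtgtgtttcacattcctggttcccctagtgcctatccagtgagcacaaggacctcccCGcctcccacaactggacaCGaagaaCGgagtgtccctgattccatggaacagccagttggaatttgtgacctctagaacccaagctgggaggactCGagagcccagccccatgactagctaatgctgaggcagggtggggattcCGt
The Lhcgr sequence holds 12 CpGs, most of them in the bases next to the start. The outer Cyp11a1 sequence holds 4 CpGs, the inner one 1 and the Cyp19a1 sequence 6. RefSeq sequences were matched for 7 of the 10 genes at 10 starts, and all 60 CpGs in the 300 bases around these starts were listed in the deposited table. Not every listed CpG had a value in all samples. Of the 12 in the Lhcgr sequence 7 did, and those without lay in the CpG-rich part next to the start. The motif CAAGGNCA, the form bound by Nr5a1 and related receptors, was searched on both strands of the 250 bases upstream of each start. It matched 0 of the 10 starts, which belong to 7 genes, against 5.53% of 32851 listed starts of all genes. The GATA-type motif AGATAA matched 2 of the 10, those of Hsd3b6 and Hsd3b1, against 9.99% of all listed starts. Star, Cyp17a1 and Nr5a1 had no matched sequence and were searched for neither motif. A match is a description of letters only.

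In the controls the 10 promoters fell into a methylated and a less methylated class, and the methylated ones lost much of their methylation in the knockouts. The promoters of Star, Cyp17a1, Cyp19a1, Hsd3b1, Hsd3b6 and Hsd17b3, which carry cholesterol into the pathway or catalyse its steps, stood at 83.4% to 94.3% in the control mean and at 33.6% to 48.8% in the knockout mean. Those of Cyp11a1 (at its outer start), Insl3, Lhcgr and Nr5a1 stood at 7.28%, 7.30%, 17.5% and 26.0% in the control mean. A region was called changed at a Benjamini-Hochberg adjusted p under 0.05 in limma, over all regions of its kind, together with a difference of at least 10 percentage points. By this rule 7 of the 10 promoters were lower in the knockouts and 0 were higher. Among all protein-coding promoters 26.9% were called lower and 0.245% higher. At an unadjusted p under 0.05, 9 of the 10 were lower and 0 higher, against 41.0% and 3.83% of all promoters. The test shares an estimate of the spread between promoters. On each promoter's own spread limma called 0 of the 10, with 7 lower at an unadjusted p under 0.05. In that setting 1 of all 15491 promoters was called lower, and the share at an unadjusted p was not counted.

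**Figure D1:**
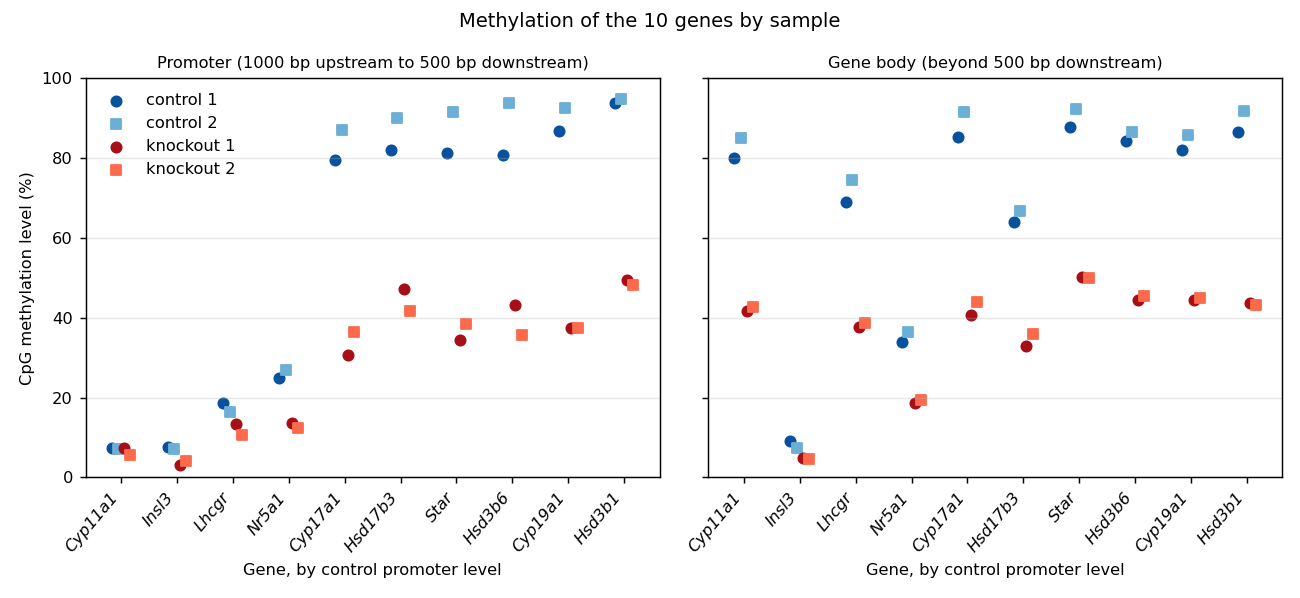
CpG methylation level in percent of the promoter (left) and the gene body (right) of each gene, 1 point per sample, with genes ordered by control promoter level. The 6 promoters on the right of the first panel lie at 79.6% or more in both controls and at 49.4% or less in both knockouts, while the Cyp11a1 promoter lies between 5.72% and 7.45% in all 4 samples.

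Lhcgr, the receptor for luteinizing hormone, lies on chromosome 17 at 88716384 to 88792059 on the minus strand. Its promoter level was 18.7% and 16.3% in the controls, against 13.5% and 10.7% in the knockouts. The groups did not overlap, but the difference of -5.39 points was below the minimum and its adjusted p was 0.0758. The level was not even along this promoter. The stretch between 1000 and 500 bp upstream stood at 62.2% in the control mean and 39.5% in the knockout mean, whereas the 500 bp next to the start stood at 6.59% and 7.84% and the first 500 bp of the gene at 5.32% and 3.99%. Among CpGs with values, the methylated ones of the Lhcgr promoter were thus those away from the CpG-rich sequence printed above.

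Nr5a1, the nuclear receptor that switches on most genes of the pathway, lies on chromosome 2 at 38692656 to 38714542 on the minus strand. Its promoter stood at 25.0% and 26.9% in the controls and at 13.5% and 12.3% in the knockouts. This is a difference of -13.0 points with an adjusted p of 0.00178, and it was called lower. Both controls lay above both knockouts. Within it, the 500 bp upstream of the start went from a control mean of 39.6% to a knockout mean of 17.2%, and the first 500 bp of the gene from 16.7% to 9.50%.

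Star carries cholesterol to the inner mitochondrial membrane, the step that limits the rate of steroid synthesis. The gene lies on chromosome 8 at 25808474 to 25815982 on the plus strand. Its promoter stood at 81.2% and 91.7% in the controls and at 34.5% and 38.5% in the knockouts, a difference of -49.97 points with an adjusted p of 0.000230. The controls differed from each other by more than the knockouts did, and the groups were far apart.

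Cyp11a1, the side-chain cleavage enzyme that makes pregnenolone from cholesterol, lies on chromosome 9 at 57998024 to 58027031 on the plus strand. At its outer start the promoter stood at 7.37% and 7.18% in the controls and at 7.45% and 5.72% in the knockouts. The groups overlapped, and the difference was -0.693 points with an adjusted p of 0.650. RefSeq also lists an inner start at position 58014952, and there the same stretch stood at 88.3% and 89.8% in the controls and at 44.7% and 45.1% in the knockouts. The difference at the inner start was -44.2 points with an adjusted p of 0.000109 over all listed starts, 28.4% of which were called lower and 0.21% higher. The 2 starts of this gene thus stood at opposite ends of the scale in the controls. In the printed sequences, the CpGs before the outer start averaged 0.977% in the controls, against 4.26% in the knockouts over 5 CpGs, the last of which spans the start. The 1 CpG before the inner start stood at 86.8% and 53.6%.

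Hsd3b1 and Hsd3b6 encode dehydrogenases that turn pregnenolone into progesterone, and Hsd3b6 is the form of adult Leydig cells. They lie near each other on chromosome 3, on the minus strand, at 98842356 to 98859794 and 98805504 to 98814443. The Hsd3b1 promoter stood at 93.9% and 94.8% in the controls and at 49.4% and 48.2% in the knockouts, a difference of -45.6 points with an adjusted p of 0.000229. The Hsd3b6 promoter stood at 80.9% and 93.9% in the controls and at 43.1% and 35.7% in the knockouts, a difference of -48.0 points with an adjusted p of 0.000387. The controls of Hsd3b6 spread more than those of Hsd3b1, with an SD of 9.20 against 0.702 points (n = 2 each). Only 5 CpGs of the Hsd3b1 promoter and 9 of the Hsd3b6 promoter were measured in all samples. Near-identical copies of these genes lie in the same cluster, so reads may have been placed on the wrong copy.

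Cyp17a1, the hydroxylase and lyase that leads from progestins to androgens, lies on chromosome 19 at 46667165 to 46673000 on the minus strand. Its promoter stood at 79.6% and 87.1% in the controls and at 30.6% and 36.5% in the knockouts, a difference of -49.8 points with an adjusted p of 0.000229. Hsd17b3, which makes testosterone from androstenedione, lies on chromosome 13 at 64058274 to 64089262 on the minus strand. Its promoter stood at 82.0% and 90.0% in the controls and at 47.3% and 41.8% in the knockouts, a difference of -41.5 points with an adjusted p of 0.000368. In both genes the lowest control was far above the highest knockout.

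Cyp19a1, the aromatase that turns androgens into estrogens, lies on chromosome 9 at 54165937 to 54268164 on the minus strand. Its promoter stood at 86.9% and 92.5% in the controls and at 37.4% and 37.4% in the knockouts. The 6 CpGs of the printed sequence averaged 93.1% in the controls and 39.8% in the knockouts. The difference over the promoter of -52.3 points, with an adjusted p of 0.000229, was the largest among the 10 promoters. RefSeq lists 2 further starts inside the gene. The one at 54228914 stood at 86.7% and 82.3% in the controls and at 37.2% and 38.0% in the knockouts, over only 4 CpGs. The one at 54193743 stood at 84.1% and 90.2% in the controls and at 46.1% and 52.9% in the knockouts, and both were called lower.

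Insl3, a peptide hormone of Leydig cells that guides descent of the testis, lies on chromosome 8 at 71689252 to 71690577 on the plus strand, inside the annotated span of Jak3. Its promoter stood at 7.53% and 7.06% in the controls and at 3.17% and 4.11% in the knockouts. The groups did not overlap and the adjusted p was 0.00287, but the difference of -3.66 points was below the minimum of 10. The stretch between 1000 and 500 bp upstream stood at 53.0% in the control mean and 20.05% in the knockout mean, and the first 500 bp of the gene at 1.42% and 1.77%.

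The share of methylation that remained was set beside that of other promoters with a similar start. Of all promoters, 3645 had a control level of at least 60%, among them 6 of the 10. The median over these 6 was 86.9% in the controls, against 38.4% in the knockouts, and the median retained share, the knockout mean over the control mean, was 43.6%. Over all 3645 the medians were 87.7%, 43.7% and 50.9%, with 90% of promoters between 39.97% and 61.9% retained. Cyp17a1 kept the smallest share of the 6, at 40.3%, and Hsd17b3 the largest, at 51.8%. The 6 values lie in the lower and middle parts of the range over all such promoters.

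The control level went with the number of CpGs in the promoter. The 6 methylated promoters listed 6 to 20 CpGs, and the other 4 listed 21 (Nr5a1), 39 (Lhcgr), 40 (Cyp11a1) and 53 (Insl3). Over the genome, 83.7% of promoters with up to 20 CpGs had a control level of at least 60%, against 27.2% of those with 21 to 40 and 0.0831% of those with more. The 10 genes followed this order, with 6 of 6, 0 of 3 and 0 of 1.

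**Figure D2:**
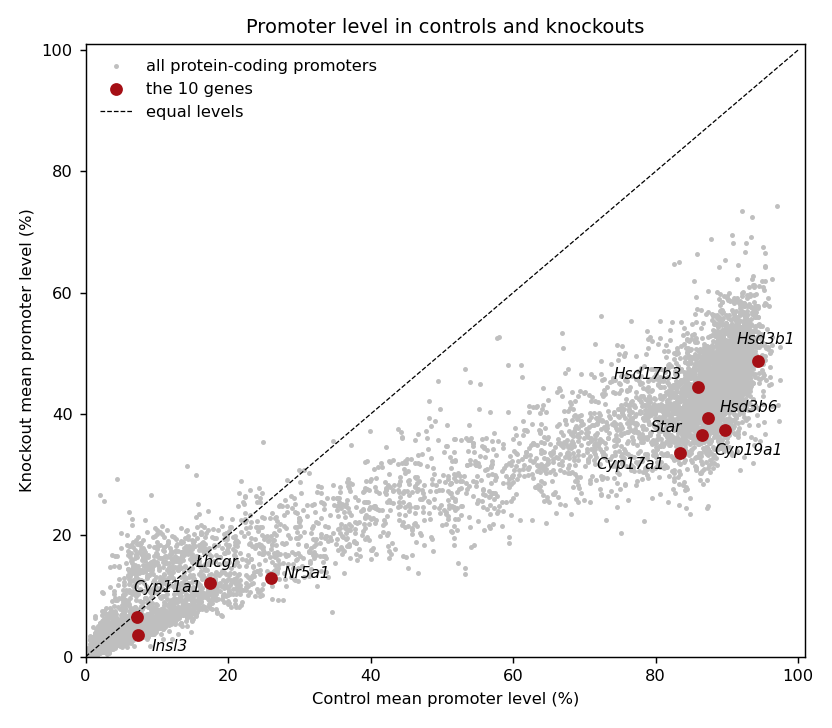
Mean promoter methylation in percent in the 2 controls (horizontal) and the 2 knockouts (vertical) for all 15491 protein-coding promoters (grey) and the 10 genes (red), with a dashed line where both are equal. The 6 methylated promoters lie among the dense group at the right, far below the line, and Cyp11a1 lies next to the line.

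Gene bodies changed in 9 of the 10 genes, each lower in the knockouts. Of all gene bodies 92.3% were called lower and 0.0705% higher, so this count is close to that of genes in general. The body of Star stood at 87.7% and 92.3% in the controls and at 50.2% and 49.96% in the knockouts. The body of Cyp11a1, whose promoter had not changed by the test, stood at 80.2% and 85.1% in the controls and at 41.7% and 42.6% in the knockouts, a difference of -40.5 points. Between the knockouts, the levels of both bodies agreed to within 1 point.

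The remaining enzymes were alike in this respect. The difference in the body was -46.1 points for Cyp17a1, -45.6 for Hsd3b1, -40.4 for Hsd3b6, -39.2 for Cyp19a1 and -31.0 for Hsd17b3. The body of Hsd17b3 started lower than the others, at 64.0% and 66.9% in the controls, and stood at 33.0% and 35.9% in the knockouts. The body of Lhcgr stood at 69.0% and 74.6% in the controls and at 37.7% and 38.6% in the knockouts. Nr5a1 and Insl3 had the lowest bodies. Nr5a1 stood at 33.99% and 36.5% in the controls and at 18.6% and 19.3% in the knockouts, and Insl3 at 9.24% and 7.27% and at 4.98% and 4.71%. The Insl3 body, at -3.42 points, was the 1 body not called, although its adjusted p was 7.21e-05.

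Promoter and body of the same gene were then compared directly, as the promoter level minus the body level in each sample. This gap changed in 5 of the 10 genes, 2 higher (Cyp11a1 and Lhcgr) and 3 lower (Star, Cyp19a1 and Hsd17b3). Among all genes with both regions, 70.7% were called higher and 6.69% lower. A gap in points shrinks by arithmetic alone when both regions keep the same share of their level, so it was also taken as a log2 ratio of promoter to body.

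In Cyp11a1 the gap was -72.8 and -77.9 points in the controls and -34.2 and -36.9 points in the knockouts, so the promoter lay below the body in every sample. It changed by 39.8 points with an adjusted p of 9.72e-49, or 0.0111 on the gene's own spread. As a log2 ratio it also changed, with an adjusted p of 0.0123. The promoter mean kept 90.5% of its low level and the body 51.0%. This gap and its change hold for the outer start only. At the inner start the promoter stretch stood at 89.1% in the control and 44.9% in the knockout mean. The body, at 82.6% and 42.2%, was close to that. Which start these cells use cannot be read from methylation. In Lhcgr the gap was -50.3 and -58.2 points in the controls and -24.1 and -27.8 points in the knockouts. This is a change of 28.3 points with an adjusted p of 8.80e-32, or 0.0321 on the gene's own spread. Over the 9714 genes with a control gap under -40 points, the median change was 34.7 points. As a log2 ratio the Lhcgr gap did not pass the test, with an adjusted p of 0.134 and retained shares of 69.3% in the promoter and 53.1% in the body.

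In the other direction, the Cyp19a1 gap was 4.97 and 6.55 points in the controls and -6.95 and -7.71 points in the knockouts, so the promoter passed from above the body to below it. This gap changed by -13.1 points, with an adjusted p of 0.000622 in points and 0.0350 as a log2 ratio. With promoters taken from 2000 bp upstream the change was -8.93 points, under the minimum. The Star gap was -6.53 and -0.576 points in the controls and -15.7 and -11.5 points in the knockouts. It changed by -10.02 points, just past the minimum, with an adjusted p of 0.00295 in points and 0.0376 as a log2 ratio. The change was under the minimum at -7.04 points when control replicate 2 was left out and at -7.90 points when knockout replicate 1 was. It was also under the minimum with each sample's own cytosines (-9.79 points) and with promoters from 2000 bp upstream (-9.06 points), and its adjusted p was 0.137 on the gene's own spread.

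The Hsd17b3 gap was 17.9 and 23.2 points in the controls and 14.3 and 5.88 points in the knockouts, a change of -10.4 points with an adjusted p of 0.0257. This call was lost without control replicate 1 (adjusted p = 0.120), control replicate 2 (-7.83 points) or knockout replicate 2 (-6.21 points), with promoters from 2000 bp upstream (-8.80 points), on the gene's own spread (adjusted p = 0.203), and as a log2 ratio (adjusted p = 0.881). The gap of Hsd3b6 changed by -7.60 points, with an adjusted p of 0.0481, and was not called. The gaps of Cyp17a1, Hsd3b1, Insl3 and Nr5a1 differed by -3.66, 0.0581, -0.241 and 3.24 points. As a log2 ratio the gaps of 3 genes were called, those of Star, Cyp19a1 and Cyp11a1. The share of all genes called on this ratio was not counted, so the 3 cannot be set beside genes in general.

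**Figure D3:**
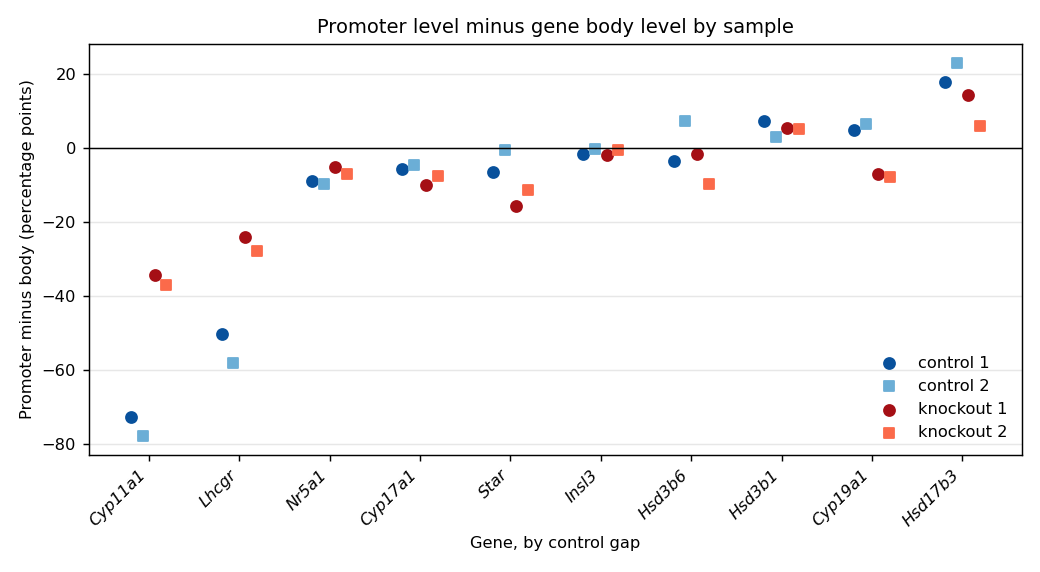
Promoter methylation minus gene body methylation in percentage points for each gene, 1 point per sample, with genes ordered by their control gap. Cyp11a1, read at its outer start, and Lhcgr lie far below 0 in the controls and nearer to it in the knockouts. Cyp19a1 lies above 0 in the controls and below it in the knockouts.

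The median gap of the 10 genes was -2.26 points in the controls and -6.69 in the knockouts. Over all 14949 genes with both regions it was -65.9 and -34.8 points. The mean promoter level of the 10 genes was 56.3% and 60.8% in the controls, against 28.0% and 27.1% in the knockouts, and the mean body level 68.2% and 71.9%, then 35.95% and 36.9%. Over all genes the same means were 22.2% and 23.5%, then 12.6% in each knockout, for promoters, and 69.3% and 72.9%, then 39.4% and 39.7%, for bodies. The 10 genes thus differ from the average gene in how many of their promoters were methylated in the controls, while their bodies stood near the average.

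The 1-kb windows show where along each gene methylation was low. Of the 343 windows, 317 (92.4%) were called lower and 0 higher, against 93.4% and 0.137% of all windows of the genome. At an unadjusted p under 0.05, 3 were higher, but the share over all windows was not counted for this setting. On each window's own spread 197 (57.4%) were called lower, against 54.9% of all windows. Every window of Star (18), Cyp17a1 (16), Hsd3b1 (11) and Hsd3b6 (9) was called lower. So were 100 of 102 windows of Cyp19a1, 35 of 37 of Cyp11a1, 68 of 72 of Lhcgr and 34 of 37 of Hsd17b3, but 22 of 29 of Nr5a1 and 4 of 12 of Insl3.

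In the controls 22 windows (6.41%) stood under 20%, against 4.44% of all windows. Nr5a1 held 7 of them, Insl3 6, Lhcgr 4, Cyp11a1 and Hsd17b3 2 each, and Cyp19a1 1. Of these 22, 10 had a knockout mean above the control mean, against 1 of the other 321. The windows were grouped by the same control mean, and this split was not counted over all windows of the genome. It is therefore not read as a trait of these genes. No exon annotation was used here, so windows inside a gene are not assigned to exons or introns.

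The low windows of Nr5a1 lay mostly behind its start. Windows at chr2:38710001-38711000, chr2:38711001-38712000 and chr2:38712001-38713000, about 4, 3 and 2 kb into the gene, stood at 1.77%, 1.67% and 1.56% in the control mean and at 3.41%, 1.92% and 1.36% in the knockout mean. The window next to the start, chr2:38713001-38714000, went from 10.3% to 4.68%. Another in the gene, chr2:38708001-38709000, stood at 9.31% and 10.1% in the controls and at 15.1% and 9.07% in the knockouts, which overlap. The remaining 2, chr2:38688001-38689000 and chr2:38689001-38690000, lay downstream of the gene over the pseudogene Adgrd2-ps and went from 13.4% to 10.8% and from 7.83% to 5.56%. The lowest methylation of Nr5a1 therefore lay within the gene rather than in the promoter window as defined here.

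Lhcgr held low windows at its start and deep inside the gene. The start window, chr17:88791001-88792000, went from a control mean of 12.0% to a knockout mean of 6.87%. About 37 kb into the gene, 3 windows in a row stood at 3.07% (chr17:88753001-88754000), 15.8% (chr17:88754001-88755000) and 5.12% (chr17:88755001-88756000) in the control mean. The first 2 of these overlapped between groups, at 3.43% and 14.4% in the knockout mean. The third stood at 4.83% and 5.42% in the controls and at 14.3% and 10.02% in the knockouts, with an adjusted p of 0.00164 and a difference of 7.02 points, below the minimum. The other 2 windows with more methylation in the knockouts that would be called with no minimum were chr8:71685001-71686000, upstream of Insl3 within Jak3, at 2.41% and 4.54%, and the window of Nr5a1 at chr2:38710001-38711000 given above.

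The low windows of Cyp11a1 lay on either side of its outer start. The upstream one, chr9:57997001-57998000, stood at 15.9% and 14.2% in the controls and at 16.9% and 12.2% in the knockouts, which overlap. The one that follows, chr9:57998001-57999000, stood at 6.70% and 8.51% in the controls and at 4.09% and 3.50% in the knockouts. A second, shallower dip lay from chr9:58004001-58005000 to chr9:58005001-58006000, where the control means were 41.8% and 43.3% and the knockout means 27.8% and 24.0%. Both windows of this dip were called lower.

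Around Insl3, low windows alternated with more methylated ones. Upstream, within Jak3, chr8:71685001-71686000 and chr8:71686001-71687000 stood at 2.41% and 1.36% in the control mean. At the gene itself, chr8:71689001-71690000 stood at 3.13% in the control and 2.32% in the knockout mean, and chr8:71690001-71691000 went from 14.9% to 8.01%. Downstream, chr8:71692001-71693000 and chr8:71693001-71694000 over B3gnt3 stood at 3.06% and 1.57% in the controls and at 2.69% and 1.82% in the knockouts. The next 2, chr8:71694001-71695000 and chr8:71695001-71696000, were higher in the controls, at 30.7% and 36.4%, and stood at 21.5% and 25.4% in the knockouts without being called. With 12 windows and 2 neighbouring genes in its span, the Insl3 locus was in large part that of its neighbours.

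Low windows of the other enzymes lay inside long genes. In Hsd17b3, chr13:64081001-64082000 stood at 7.49% and 1.75% in the controls and at 6.09% and 6.79% in the knockouts, and chr13:64082001-64083000 went from a mean of 8.83% to 4.29%. In Cyp19a1, chr9:54180001-54181000 stood at 13.3% and 5.28% in the controls and at 15.9% and 9.33% in the knockouts, which overlap. A window of each of these genes that was more methylated in the controls was not called either, at 21.2% and 21.9% in Cyp19a1 (chr9:54201001-54202000) and at 27.5% and 22.8% in Hsd17b3 (chr13:64072001-64073000).

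**Figure D4:**
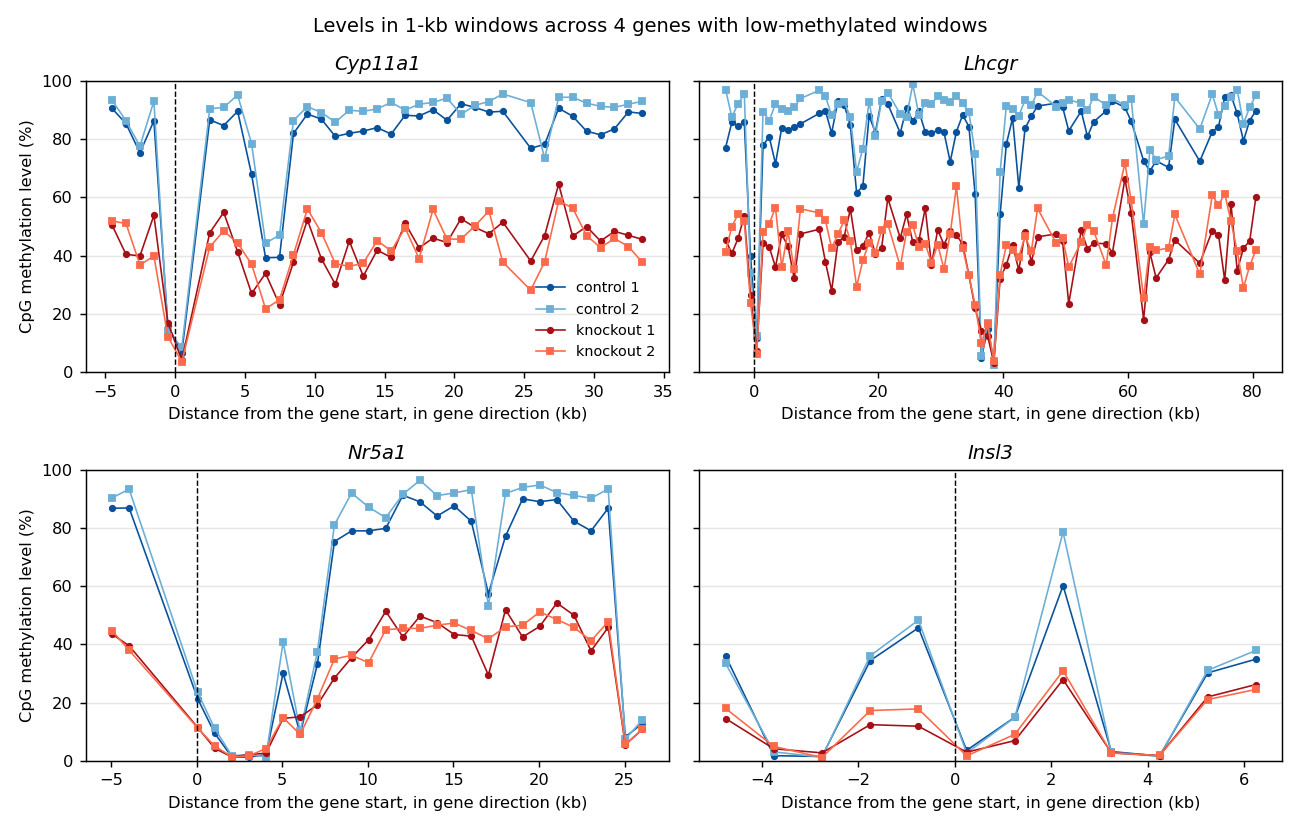
CpG methylation level in percent of 1-kb windows with at least 3 CpGs in Cyp11a1, Lhcgr, Nr5a1 and Insl3, by distance from the gene start in kb in the direction of the gene, with 1 line per sample joining the measured windows and a dashed line at the start. All 4 samples are low at the start of Cyp11a1, at and about 37 kb after the start of Lhcgr, behind the start of Nr5a1 and at several places around Insl3. In some of these low windows the groups overlap, and in others they stay apart, in either direction. The controls lie above the knockouts elsewhere.

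The 298 windows with a control mean of at least 60% kept a median of 51.7%, and 90% of them kept between 39.995% and 61.4%. Over the genome the median was 52.6%, with 90% of windows between 40.4% and 65.6%. By gene the median retained share ran from 47.2% over 15 windows of Cyp17a1 to 55.1% over 18 windows of Star, leaving out Insl3 with its 1 such window. In percentage points, the largest loss was that of chr13:64075001-64076000 in Hsd17b3, from 89.9% and 90.3% in the controls to 22.3% and 32.5% in the knockouts, over 3 CpGs. The smallest in points was that of chr9:54226001-54227000 in Cyp19a1, from 60.9% and 70.7% to 47.9% and 43.1%.

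Other genes of the pathway were read from lists. Of 16 genes of cholesterol supply and electron transfer, 8 had a tested promoter, and all 8 stood under 20% in the controls. Of these, 0 were called lower and 0 higher, against 26.9% and 0.245% of all promoters. At an unadjusted p under 0.05 in limma, 2 were lower and 0 higher, against 41.0% and 3.83% of all promoters. Their median was 2.46% in the controls, against 2.11% in the knockouts. The lowest were Fdxr, the reductase that feeds electrons to mitochondrial cytochromes P450, at 0.877%, and Hmgcs1, an enzyme of cholesterol synthesis, at 1.28% in the control mean. The highest were Fdx1, the ferredoxin that serves Cyp11a1, at 6.95% in the control and 3.19% in the knockout mean, and Stard3, at 3.63% and 2.29%. The bodies of all 8 were called lower, as were 92.3% of all bodies.

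Of 21 other steroid enzymes, 12 had a tested promoter, and 7 were called lower and 0 higher, against the 26.9% and 0.245% of all promoters. Their median was 53.5% in the controls, against 25.0% in the knockouts. Hsd3b2 and Hsd3b3, relatives of Hsd3b1 in the same cluster, were the highest, at 94.6% and 93.4% in the control and 45.7% and 36.2% in the knockout mean. Hsd17b12 and Srd5a1 were the lowest, at 1.02% and 1.05% in the control and 1.15% and 1.05% in the knockout mean. All 12 bodies were called lower, against 92.3% of all bodies. This list thus held both nearly unmethylated and highly methylated promoters. The 10 genes also held low and high ones, but their lowest was Cyp11a1 at 7.28% in the control mean.

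Of 25 regulators and genes of hormone signalling, 16 had a tested promoter, and 6 were called lower and 0 higher (26.9% and 0.245% of all promoters), with medians of 10.97% in the controls, against 4.77% in the knockouts. Nr5a2, a close relative of Nr5a1, was the highest at 87.7% and 45.8%, followed by Insl5, a relative of Insl3, at 62.0% and 37.2%. Ptch1, the receptor for hedgehog ligands, and Sp1, a general transcription factor, were the lowest, at 1.07% and 1.08% in the control and 0.906% and 1.07% in the knockout mean. Of the 17 bodies tested 14 were called lower (92.3% of all bodies). Over all 15491 promoters the medians were 2.81% and 2.38%.

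Promoters of genes of other cell types were read in the same way. Of 6 tested Sertoli cell genes 2 were called lower and 0 higher, against 26.9% and 0.245% of all promoters. The 2 were Gata1 and Amhr2, at 90.1% and 85.8% in the control and 42.9% and 42.8% in the knockout mean. The lowest were Inhbb, at 0.807% and 1.12%, and Cldn11, at 3.79% and 3.42%. Of 3 tested genes of macrophages and endothelium 2 were called lower and 0 higher, again against 26.9% and 0.245% of all promoters. Ptprc and Cd68 were called, at 90.5% and 76.0% in the control and 37.2% and 37.1% in the knockout mean. Tek was not called and stood at 22.7% and 13.2%. The germ cell genes were the 1 list with calls in the higher direction, 4 of 10 against 0.245% of all promoters, with Dazl at 7.86% and 4.03% in the controls, against 21.1% and 13.8% in the knockouts. Mael stood at 1.68% and 6.51% in the controls and at 14.9% and 18.4% in the knockouts. Sycp1 and Sycp3, parts of the synaptonemal complex, rose from 4.65% to 14.7% and from 6.41% to 17.1% in the means. The other 6 did not pass. Stra8 and Piwil1 had the highest control levels of the list, and Stra8 stood at 13.4% and 13.7% in the controls and at 19.2% and 14.05% in the knockouts. Piwil1 (12.8% and 10.2%, then 15.4% and 10.5%) and Ddx4 (11.5% and 9.49%, then 17.1% and 7.78%) overlapped between the groups.

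The genes whose promoter and body levels lay nearest to the median of the 10 genes, by Euclidean distance over the 8 values of promoter and body in the 4 samples, were Slco1a5 (3.61 points), Rbms3 (4.34 points) and Oca2 (5.93 points). Slco1a5 stood at 80.8% and 89.2% in the promoter of the controls and at 31.3% and 33.6% in that of the knockouts.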

How the data were processed

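Male germ cells of 2 control and 2 knockout samples were profiled by bisulfite sequencing, and groups follow the sample titles. The authors deposited, for each cytosine of a CpG, the percent of reads methylated in each sample. The build was mm10 per the submitters' processing notes. Aligner and caller were not given in the sources used here, and the table's title names a minimum of 10 reads. Depth per value is unknown, so values had equal weight and no interval was computed. Of 37230584 listed cytosines, 22421484 (60.2%) had a value in all 4 samples and were used. The table had 0 further sample columns.

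Starts and strands came from RefSeq tables for GRCm38.p6, with the 5′-most start that the promoter table lists, which for Hsd17b3 and Lhcgr lies just inside the gene span. The strands of Star, Cyp17a1 and Nr5a1 were taken from general knowledge. Their far ends, which would be the promoters on the other strand, stood at 89.8% and 94.9%, 70.7% and 76.5%, and 81.1% and 89.5% in the controls. Sequences were planned for the promoters with the lowest and highest control level and for those whose call differed from the majority. The highest was that of Hsd3b1, and Cyp19a1 was printed in its place, a choice outside the plan. The Insl3 sequence was not printed because it lies within Jak3. The level of a region is the mean over its cytosines, with at least 3 CpGs. With m the level as a fraction, log2((m + 0.01)/(1 − m + 0.01)) was tested in limma 3.58.1 (R 4.3.3), trended and robust, and gaps were tested in points, all two-sided and over the whole genome. The prior had 9.20 degrees of freedom for promoters and 15.6 for windows against 2 from the samples, and no finite number for 94.5% of bodies and 90.5% of gaps, so most p-values rest on a variance shared between regions. Each test was tested on simulated data. Alternatives were the replicate block, leaving out each sample, other offsets, region bounds, CpG minimums and scales, and each region's own spread.

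All 10 genes are named with values. Of each list, the promoters called higher and those with the 2 lowest and 2 highest control levels are named. Of the windows, those under 20% in the controls, the largest and smallest loss, and the uncalled ones above 20% are named, the last chosen after their values were seen. The genes and lists were chosen with earlier results of these data known. Python 3.11.15, NumPy 2.4.6, pandas 2.3.3 and Matplotlib 3.10.9 were also used.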

Additional observations from a re-analysis of the deposited data

How the results depend on the processing

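Over 2 samples per group, the calls rest on a spread shared between regions. On each region's own spread, 0 of the 10 promoters were called, with adjusted p from 0.0857 to 0.160 for the 7 lower ones (limma), while 7 were lower at an unadjusted p under 0.05 and 1 of all promoters was called. On the same footing 197 windows were called lower, against 54.9% of all windows. The gaps called changed were 3, and the share over all genes was not counted for this setting or for the log2 ratio. The count of changed gaps was 2 with promoters from 2000 bp upstream (Star, Cyp19a1 and Hsd17b3 were lost), 3 as a log2 ratio, and 3 to 5 with 1 sample left out. With promoters from 2000 bp upstream Lhcgr (-16.8 points) and Insl3 (-10.8 points) were also called lower. The share of all promoters called lower was not counted for this setting. With no minimum difference, 3 windows were called higher, and the share over all windows was not counted. Leaving out 1 sample in turn gave 7 promoters and 9 bodies each time, and 308 to 313 windows. The knockout minus control difference of the mean over the genes was -31.0 points for promoters (-33.2 to -28.8 with 1 sample left out), -33.6 for bodies (-35.4 to -31.8) and 2.63 for gaps (1.72 to 3.54). With medians over cytosines it was -36.8 for bodies and 6.06 for gaps. Without Hsd3b1 and Hsd3b6 it was -27.0 for promoters and 4.23 for gaps, and without Star, Cyp17a1 and Nr5a1 it was 5.25 for gaps. Same-numbered samples share only a number (correlation of deviations 0.0833 for promoters, 0.111 for bodies and 0.0280 for windows). With the replicate number as a replicate block the counts were 7 promoters, 9 bodies, 317 windows lower, 0 higher and 5 gaps, as without it. Shares over all regions were not counted with this block or with 1 sample left out. The trimmed body left no value for Insl3. The own spread of gaps and of windows called higher, every listed start (10 of 13 lower), the sets of genes without Star, Cyp17a1 and Nr5a1, and the means with 1 sample left out were chosen after seeing the data. The cause of these shifts was not tested.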
